A study of Mus musculus with 2 samples.

Results

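The 10 genes described here mark pericytes and vascular smooth muscle cells, the mural cells that wrap capillaries and larger vessels. They were picked by name from 21911 protein-coding symbols, and their accessible chromatin was read in the gastrocnemius, a calf muscle, of male B6CASTF1/J mice aged 25 days. The 2 DNase-seq libraries, replicate 1 and replicate 2, form 1 group with no treatment named, and no other tissue or age was set against them. Both libraries carry 1 donor identifier although their descriptions number different males, so whether they are separate animals rests on those descriptions. B6CASTF1/J mice are F1 hybrids, and all positions and sequences below are those of the reference genome, GRCm38 (mm10).

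DNase I cuts DNA where nucleosomes are displaced, and the ends it releases mark promoters and enhancers that are open in some of the cells of the tissue. Pericytes are recruited to new vessels by PDGF from the endothelium acting on the receptor Pdgfrb, and Notch3 receives signals from endothelial Notch ligands and helps mural cells mature. In smooth muscle, the factor SRF binds CArG boxes at contractile genes, and myocardin, the product of Myocd, acts with it. Skeletal muscle consists mainly of multinucleate myofibres, and mural cells are a minor population within it. A bulk library cannot tell apart a region that is open in few cells from one that is weakly open in many.

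Each library had a list of peaks with the authors' deposited signal, a list of footprints (short protected stretches within open regions) and a list of positions with a q-value below 0.05. Replicate 1 had 97499 peaks and replicate 2 had 61664, and the signals moved in steps that correspond to 1 tag in 169 M in replicate 1 and 1 in 117 M in replicate 2. Signals are therefore given as tags per 1000000 tags of the library, a reading that comes from the values. The region whose tags make up a signal is not stated in the sources, so the tags named below are those behind the signal and not a count over the peak. Intervals given with a signal are exact Poisson 95% intervals on these tags, on that reading, and cover counting error only. The tissue label was set beside markers of the cells a muscle holds. A start peak (a peak within 1 kb of an annotated transcription start) was found for 8 of 8 myofibre genes in replicate 1 and 7 of 8 in replicate 2, for 8 and 9 of 9 endothelial genes, for 6 and 5 of 7 fibroblast genes, and for 0 of 5 leukocyte genes in both. The shares over all protein-coding symbols were 66.5% in replicate 1 and 64.2% in replicate 2, to which the fibroblast counts are close. The myofibre genes had a median start signal of 2.63 in replicate 1 and 1.85 in replicate 2, with the highest at Actn3 (6.31 and 5.94) and lower ones at Mb (1.60 and 1.31) and Myh4 (0.946 in replicate 1, no start peak in replicate 2).

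Most of the mural cell genes were open at a start, and the strongest start peak of each of these lay below the median over all genes with one. Replicate 1 had a start peak at 9 of the 10 genes, against 66.5% of all protein-coding symbols, and replicate 2 at 8 of 10, against 64.2%. Pdgfrb, Cspg4, Notch3, Rgs5, Abcc9, Myh11 and Myocd had one in both libraries, 7 of 10 against 63.0% of all symbols. Acta2, Tagln and Cnn1 had one in 1 library each, 3 of 10 against 4.70% of all symbols, and none of the 10 lacked one in both, against 32.3%. With the shorter peak lists, 5 of 10 had one in both: Rgs5 and Myocd did not, and Acta2 and Myocd had one in neither. With a 500 bp window, Tagln had one in neither. The median start signal was 1.46 for the genes of replicate 1 with a start peak and 1.44 for those of replicate 2, against 3.57 and 3.43 over all symbols with one. Each of the 9 and each of the 8 lay below that median of all symbols. They lay between the 3.36th and 38.7th percentiles in replicate 1 and between the 4.39th and 28.9th in replicate 2. Ranked among all single start peaks, in place of the strongest per gene, they stood higher. The strongest of Pdgfrb was then at the 67th percentile in replicate 1 and the 50.2nd in replicate 2, and that of Myocd at the 9.01th and 14.8th. The percentiles of distal peaks below are those of single peaks. The marker lists of other cell types with start peaks had median start signals below that of all symbols too. These were 0.935 in replicate 1 and 0.966 in replicate 2 for endothelial genes, and 1.34 in each for fibroblast genes. For myofibre genes they were 2.63 and 1.85. Start signals below the median of all symbols were thus not particular to the 10 genes.

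**Figure D1:**
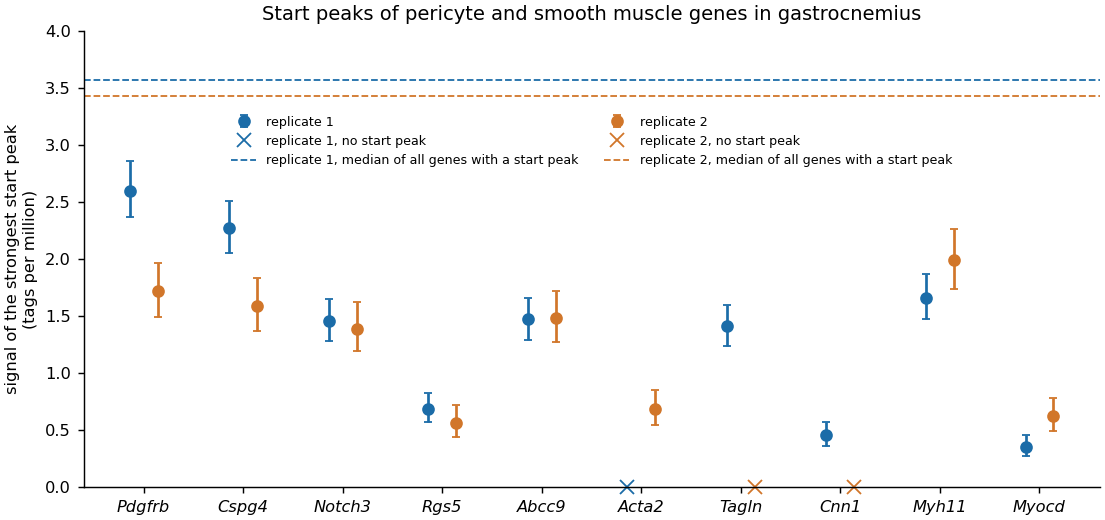
Signal of the strongest start peak (tags per 1000000, linear axis from 0) of each gene in replicate 1 and replicate 2, with exact Poisson 95% intervals on its tags, crosses at 0 where no start peak was listed, and dashed lines for the median of all genes with a start peak in each library. All points lie under the lines at 3.57 and 3.43, and Acta2, Tagln and Cnn1 have a point in 1 library each.

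Among the receptors, Pdgfrb had the highest start signal of the 10 in replicate 1. Pdgfrb is the receptor tyrosine kinase for PDGF-B and the usual marker of pericytes, and lies on the plus strand of chr18:61045150-61085061. Its start signal was 2.60 (2.37 to 2.86) in replicate 1 and 1.72 (1.49 to 1.97) in replicate 2, a mean of 2.16 ± 0.626 (SD, n = 2) and a log2 ratio of replicate 1 over replicate 2 of 0.60. The intervals did not overlap, and of all shared peaks 88.6% had a lower ratio. Inside the gene, a peak in intron 10, 23.4 kb past the 5′ end, had 2.64 in replicate 1 and 3.20 in replicate 2. It was stronger than the start in replicate 2, while in replicate 1 its value lay inside the interval of the start. Its 3 footprints in replicate 1 all overlapped a footprint of replicate 2. It stood at the 96.9th and 96.4th percentiles of the distal peaks of each library, that is, peaks outside the 1 kb on either side of every annotated start. A weaker shared peak lay 5.1 kb upstream, with 1.67 in replicate 1 and 1.60 in replicate 2. The neighbour Csf1r, a receptor of macrophages and one of the 5 leukocyte markers, had no start peak in either library.

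Cspg4 (chr9:56865033-56899870, plus strand) encodes the NG2 proteoglycan of pericytes, which is also made by glial precursors. Its start signal was 2.27 (2.05 to 2.51) in replicate 1 and 1.59 (1.37 to 1.83) in replicate 2, a mean of 1.93 ± 0.482 (SD, n = 2). As at Pdgfrb, replicate 1 was higher and the intervals did not overlap. In both libraries this peak also lay within 1 kb of an annotated start of the neighbour Odf3l1. Its signal therefore cannot be assigned to Cspg4 alone. The start peak held 6 footprints in replicate 1 and 4 in replicate 2, and 4 of the 6 were shared. In intron 1, 2 further peaks were found in both libraries: one 11.9 kb past the 5′ end with 1.31 in replicate 1 and 0.718 in replicate 2, and one 18.0 kb past it with 1.76 and 1.02. Both were again higher in replicate 1. The shared peak 17.3 kb upstream went the other way, with 1.12 in replicate 1 and 1.59 in replicate 2.

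The Cspg4 window held the most peaks of the 10 in replicate 2, 22, against 13 in replicate 1. The excess lay past the 3′ end of the gene, where replicate 2 listed 14 peaks within chr9:56909441-56917046 and replicate 1 listed 2. The 14 had signals from 0.162 to 0.709 with a median of 0.269, and 3 of them overlapped a replicate 1 peak. The 2 peaks of replicate 1 had 0.621 and 1.41. Without that stretch, the window held 11 peaks in replicate 1 and 8 in replicate 2. Crowded windows, those of 10 kb with 8 or more peaks, held 2.10% of all peaks in replicate 1 and 5.82% in replicate 2. The stretch was crowded in replicate 2 alone. What makes such stretches differ between the libraries was not tested.

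Notch3 (chr17:32120820-32166852, minus strand) had modest start peaks and the strongest peak inside any of the genes. Notch3 is the Notch receptor of vascular smooth muscle and pericytes. Its strongest start signal was 1.46 (1.28 to 1.65) in replicate 1 and 1.39 (1.19 to 1.62) in replicate 2, a mean of 1.42 ± 0.044 (SD, n = 2), but these were different peaks. The peak at the first exon had 1.46 in replicate 1 and 1.10 in replicate 2, and the one about 0.7 kb into the gene had 0.881 in replicate 1 and 1.39 in replicate 2. The nearly equal maxima therefore do not describe a single region.

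The strongest peak inside Notch3 lay over exon 24, 23.5 kb from the 5′ end, at the same borders in both libraries. Its signal was 3.75 in replicate 1 and 4.57 in replicate 2, a mean of 4.16 ± 0.581 (SD, n = 2), which is 98.8th and 98.7th in percentile among distal peaks. It held 5 footprints in replicate 1 and 3 in replicate 2, and 4 of the 5 overlapped one of replicate 2. Next came a peak 6.5 kb upstream of the gene, with 2.66 in replicate 1 and 2.10 in replicate 2, which held 4 footprints in each. The sequences of both peaks are shown because the footprints of the libraries coincide in them. They run 5′ to 3′ on the strand of the gene, from chr17:32143261-32143480 for exon 24 and chr17:32173281-32173480 for the upstream peak, and capitals mark bases inside footprints of both libraries.
Notch3 exon 24 peak: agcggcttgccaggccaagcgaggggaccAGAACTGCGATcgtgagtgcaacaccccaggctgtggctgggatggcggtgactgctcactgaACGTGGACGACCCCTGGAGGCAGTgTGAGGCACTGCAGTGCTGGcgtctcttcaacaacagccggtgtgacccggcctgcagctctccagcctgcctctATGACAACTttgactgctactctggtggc
Notch3 upstream peak: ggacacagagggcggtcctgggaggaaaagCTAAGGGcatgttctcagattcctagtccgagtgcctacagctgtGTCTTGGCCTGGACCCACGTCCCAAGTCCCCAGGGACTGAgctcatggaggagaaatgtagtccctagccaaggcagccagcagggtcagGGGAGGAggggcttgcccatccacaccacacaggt

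The Notch3 window as a whole was rich in peaks that both libraries shared. Of its 14 peaks in replicate 1 and 12 in replicate 2, 11 were shared in each. The shared peaks past the end of the gene and over exon 33 also lay in the overlapping gene Gm17276. They cannot be assigned to Notch3 alone. It held 8 shared distal peaks, and 1.37% of 3856 genes of like length (within 1.5 times) held as many in replicate 1 and 1.40% in replicate 2. For Cspg4 the same shares were 4.78% and 2.49%. For Myh11, Acta2, Pdgfrb, Tagln, Cnn1 and Abcc9 they ran from 18.6% to 50.1%, and Rgs5 and Myocd held no shared distal peak. Over exon 33, at the far end of the gene, the stronger shared peak had 2.35 in replicate 1 and 1.73 in replicate 2. Its borders differed between the libraries, and 1 of its 7 footprints in replicate 1 overlapped one of replicate 2. The weaker shared peak there had 0.869 and 1.14.

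Rgs5, a regulator of G protein signalling that is high in pericytes, had one of the weakest start peaks of the 10. Rgs5 lies at chr1:169655501-169695813 on the plus strand. Its signal was 0.686 (0.567 to 0.823) in replicate 1, from 116 tags, and 0.564 (0.436 to 0.717) in replicate 2, from 66, a mean of 0.625 ± 0.0864 (SD, n = 2), and the intervals overlapped. The peak held 5 footprints in replicate 1 and 0 in replicate 2. No other peak of the Rgs5 window was shared: replicate 1 had 3 more, with 0.521 (18.1 kb upstream), 0.349 and 0.337 (both in introns), and replicate 2 had none.

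Abcc9 (chr6:142587862-142702315, minus strand) encodes SUR2, which forms ATP-sensitive potassium channels with the product of Kcnj8, and both subunits are used by mural cells. SUR2 is also a channel subunit of muscle fibres, so its start is not specific to mural cells. Its start signal was 1.47 (1.29 to 1.66) in replicate 1 and 1.48 (1.27 to 1.72) in replicate 2, a mean of 1.47 ± 0.00802 (SD, n = 2), the closest pair of the 7 genes with a start peak in both. The open stretch was broad: 1100 of the 2098 bp in its start windows were listed with a q-value below 0.05 in replicate 1 and 983 in replicate 2, which is at or above 93.7% and 92.3% of all symbols. Its partner Kcnj8, whose start falls 16.4 kb past the end of Abcc9, had 1.83 in replicate 1 and 1.67 in replicate 2. The pair thus had start peaks of like size. In intron 14 of Abcc9, 34.0 kb from the 5′ end, a shared peak had 1.65 in replicate 1 and 0.778 in replicate 2.

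The contractile genes Acta2, Tagln and Cnn1 were the ones with a start peak in 1 library each. Acta2 encodes smooth muscle alpha-actin, the standard marker of smooth muscle cells and myofibroblasts, on the minus strand of chr19:34241090-34255590. Replicate 1 listed no peak at its starts and no position with a q-value below 0.05 in the 3361 bp of its start windows. Replicate 2 had a peak of 0.684 (0.542 to 0.851), from 80 tags, at chr19:34255287-34255460 with 1 footprint, and listed 354 bp, with a lowest q-value of 5.8e-03. A level for replicate 1 cannot be given, since a peak list holds called regions alone, and the difference rests on 1 weak peak.

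The promoter of Acta2, from 250 bases before to 50 after its RefSeq start, is shown because it holds elements of the kind that SRF is known to bind. It is taken from the RefSeq promoter table for GRCm38.p6 and runs 5′ to 3′ on the minus strand, chr19:34255324-34255623. Capitals mark CArG boxes (CC, 6 bases of A or T, GG, on either strand) with 1 C or G allowed among the 6.
Acta2 promoter: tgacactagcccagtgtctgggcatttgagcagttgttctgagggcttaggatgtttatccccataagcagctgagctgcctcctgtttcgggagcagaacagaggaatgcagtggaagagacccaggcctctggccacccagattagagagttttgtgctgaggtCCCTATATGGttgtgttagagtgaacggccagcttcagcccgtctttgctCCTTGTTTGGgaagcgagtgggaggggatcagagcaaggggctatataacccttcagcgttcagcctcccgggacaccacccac
Both boxes, at chr19:34255448-34255457 and chr19:34255398-34255407, lay inside the replicate 2 peak, and none of their bases was in a footprint of either library. In replicate 1 none of their bases was listed. Such a relaxed box is present in 9.98% of 32851 RefSeq promoters and an exact one in 1.63%, so a match describes the sequence and does not show binding.

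Away from its start, the window of Acta2 held peaks in both libraries. The strongest lay 7.0 kb past the end of the gene, within the neighbour Stambpl1, with 1.64 in replicate 1 and 1.48 in replicate 2. Another lay 10.2 kb upstream, with 0.414 in replicate 1 and 0.641 in replicate 2. An exact CArG box, at chr19:34265834-34265843, crossed the edge of the replicate 1 peak, with all 10 bases listed in replicate 1, 0 listed in replicate 2 and none in a footprint. A peak of 0.887 in intron 7 was found in replicate 1 alone.

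Tagln encodes transgelin (SM22 alpha), an actin-binding protein of smooth muscle, on the minus strand of chr9:45929619-45936058. The peak counted at its start was centred at −1043 bp from the 5′ end, upstream being negative, and reached into the 1 kb window by its edge. That peak had 1.41 (1.24 to 1.60) in replicate 1, from 239 tags, and held 5 footprints. Replicate 2 had none there, and 1 bp of its start windows was listed, at a q-value of 4.9e-02. The sequence of the peak is shown as the one open region near the gene, chr9:45937001-45937200, 5′ to 3′ on the minus strand, with the bases in footprints of replicate 1 in capitals.
Tagln upstream peak: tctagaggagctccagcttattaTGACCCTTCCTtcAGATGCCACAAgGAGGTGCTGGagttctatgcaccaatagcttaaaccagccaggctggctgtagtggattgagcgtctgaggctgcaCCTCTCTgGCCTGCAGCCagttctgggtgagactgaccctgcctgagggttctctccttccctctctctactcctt
Of the exact CArG boxes of Tagln, the nearest to its 5′ end lay at −108 and 15 bp. Neither had a listed base in either library. The stronger peaks in the window belonged to the starts of its neighbours: Sidt2 had 3.79 in replicate 1 and 3.04 in replicate 2, and Pcsk7 had 1.95 and 1.25.

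Cnn1 (chr9:22099216-22109630, plus strand) encodes calponin, which regulates smooth muscle contraction. Its start peak in replicate 1 had 0.455 (0.359 to 0.569), from 77 tags, at the 6.00th percentile of start signals. Replicate 2 listed no peak and no position in its start windows, so the presence of an open start depends on the library. Among the other peaks of the window, not all of which are described here, the start of the neighbour Ecsit had 4.73 in replicate 1 and 2.99 in replicate 2, and that of Elof1 had 4.32 and 3.31. The promoter of Cnn1, from the RefSeq table, is shown beside that of Acta2 because it held no exact or relaxed CArG box and so has no capitals. It is chr9:22099003-22099302 and runs 5′ to 3′ on the plus strand.
Cnn1 promoter: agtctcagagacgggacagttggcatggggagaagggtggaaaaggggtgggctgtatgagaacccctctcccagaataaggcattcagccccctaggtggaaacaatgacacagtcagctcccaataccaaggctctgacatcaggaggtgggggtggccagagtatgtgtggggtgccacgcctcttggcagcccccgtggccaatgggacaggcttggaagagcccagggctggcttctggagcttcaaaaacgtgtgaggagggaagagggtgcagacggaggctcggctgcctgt

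Myh11 was the contractile gene of the 10 with a start peak in both libraries. Myh11 (chr16:14194535-14291372, minus strand) encodes smooth muscle myosin heavy chain, the most specific marker of mature smooth muscle. Its start signal was 1.66 (1.47 to 1.87) in replicate 1 and 1.99 (1.74 to 2.26) in replicate 2, a mean of 1.83 ± 0.233 (SD, n = 2), and the intervals overlapped. The start peak held 6 footprints in each library, of which 5 of replicate 1 overlapped one of replicate 2. The part of it before the 5′ end, chr16:14291373-14291540, is shown 5′ to 3′ on the minus strand with the bases in footprints of both libraries in capitals.
Myh11 start peak: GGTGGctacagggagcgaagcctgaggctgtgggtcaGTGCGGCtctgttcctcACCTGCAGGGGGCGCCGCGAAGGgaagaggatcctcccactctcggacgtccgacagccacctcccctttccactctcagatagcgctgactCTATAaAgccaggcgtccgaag

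A second, weaker peak of Myh11, 1.0 kb upstream, held the single exact CArG box that lay whole within a peak in the 10 windows. Its signal was 0.450 in replicate 1 and 0.726 in replicate 2. The box, at chr16:14292321-14292330, was inside the peak in both libraries, with all 10 bases listed and none in a footprint. The replicate 1 peak, chr16:14292313-14292500, is shown 5′ to 3′ on the minus strand with CArG boxes in capitals, 1 C or G allowed among the inner 6. The exact box is the one nearer the 3′ end, at −954 bp from the 5′ end of the gene.
Myh11 upstream peak: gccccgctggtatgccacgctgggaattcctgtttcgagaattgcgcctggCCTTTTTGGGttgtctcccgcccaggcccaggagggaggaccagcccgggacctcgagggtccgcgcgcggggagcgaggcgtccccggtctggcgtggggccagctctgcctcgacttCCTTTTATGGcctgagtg
Within Myh11, shared peaks lay in intron 9, with 1.53 in replicate 1 and 2.11 in replicate 2, in intron 3, with 1.74 and 0.966, and in intron 40, with 0.485 and 0.726. All 6 peaks that replicate 2 had in the Myh11 window were shared.

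Over the 10 windows, 52 exact CArG boxes were counted, from 10 at Myh11 and 8 at Acta2 to 2 at Cnn1. The 1 box in a peak was 1.92% of them in each library, beside 0.777% in replicate 1 and 0.486% in replicate 2 of 81717 boxes in the windows of all coding genes. With a count of 1, no difference between these shares can be read. Counted by peaks, with the search limited to the 150 bp around the centre, the Myh11 box lies too far from the centre to count and another takes its place. It is an exact box at chr19:34265834-34265843, at the edge of the peak 10.2 kb upstream of Acta2. So counted, 1 of 73 in replicate 1 (1.37%, Wilson 95% interval 0.242 to 7.36%) and 0 of 62 in replicate 2 (0 to 5.83%) had an exact box, beside 0.642% and 0.511% of all peaks. With 1 C or G allowed inside, the shares were 9.59% in replicate 1 and 8.06% in replicate 2, beside 4.82% and 4.37%. Both background shares lay within the Wilson intervals of the member peaks, 4.72 to 18.5% and 3.49 to 17.5%. At gene starts they lay below the intervals: 3 of 23 start peaks in replicate 1 (13.0%, 4.54 to 32.1%) and 3 of 21 in replicate 2 (14.3%, 4.98 to 34.6%) held a relaxed box, beside 3.94% and 3.44% of all start peaks. These start peaks include those of neighbours in the windows, and 3 peaks carry each share. In replicate 1 they lay at Myh11, Myocd and the neighbour Pcsk7, and in replicate 2 at Acta2, Myocd and the neighbour Sidt2. Myocd alone recurred in both libraries. Besides the relaxed box, 8 motifs were searched, and the intervals are not corrected for the number of comparisons.

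**Figure D2:**
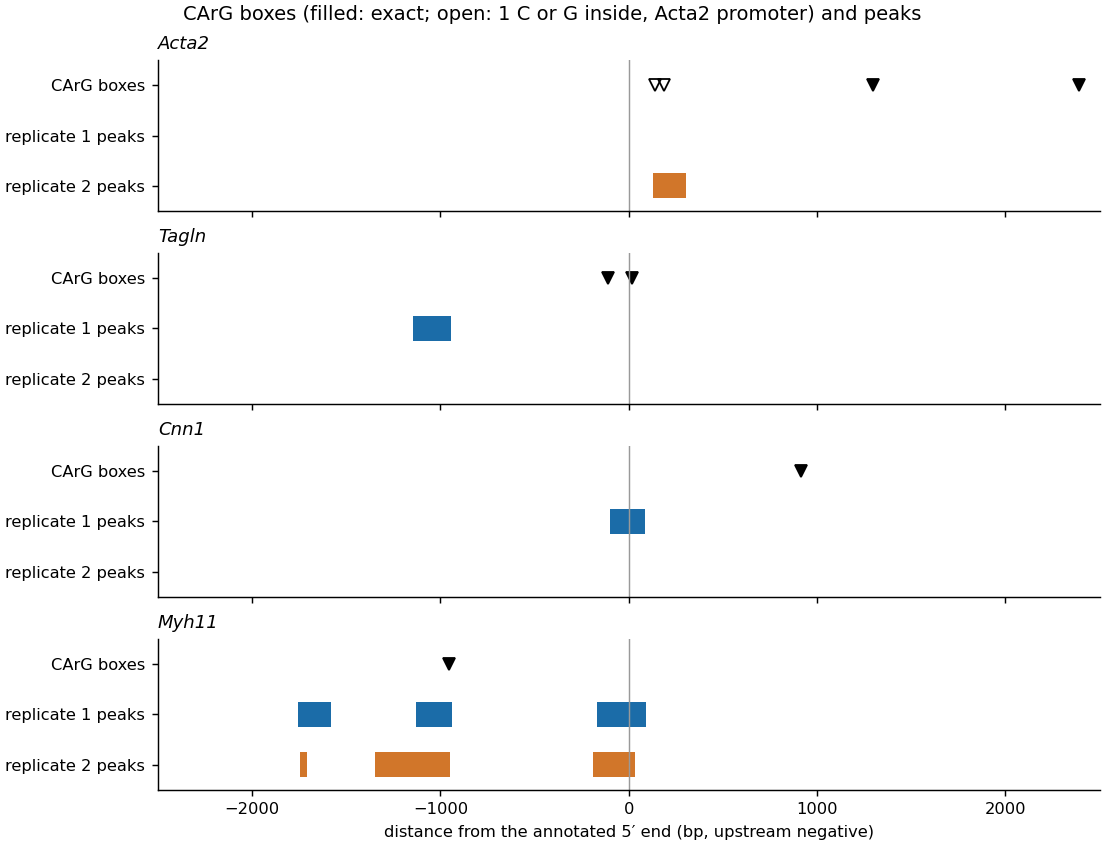
CArG boxes and peaks within 2500 bp of the 5′ end (horizontal axis in bp, upstream negative) of 4 contractile genes, with bars for the extent of each peak in replicate 1 and replicate 2, filled triangles for exact boxes and open triangles for boxes of the Acta2 promoter with 1 C or G inside. The box of Myh11 at −954 bp falls within a bar in both libraries and the open triangles of Acta2 within the bar of replicate 2, while the filled triangles of Acta2, Tagln and Cnn1 lie outside every bar.

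Sites of other factors were counted in the same way. RBPJ is the DNA-binding partner of Notch receptors, and its site GTGGGAA was in the central 150 bp of 6.85% of the peaks in the 10 windows in replicate 1 (2.96 to 15.1%) and 3.23% in replicate 2 (0.889 to 11.0%), beside 3.72% and 3.68% of all peaks. The MCAT element of TEAD factors, CATTCC, was in 9.59% and 6.45%, beside 9.03% and 7.64%. The E-box CAGCTG was in 17.8% and 19.4%, beside 18.1% and 15.4%. All these background shares lay inside the intervals of the member peaks, and both strands were searched. Of the start peaks alone, 17.4% in replicate 1 (6.98 to 37.1%) and 23.8% in replicate 2 (10.6 to 45.1%) held the E-box. The shares of all start peaks were 11.7% and 10.4%, the latter just under the interval. Among the 10 genes, only Abcc9 had an E-box in the central 150 bp of a peak at its own start, in each library. The other E-box start peaks were those of the neighbours Odf3l1, Pcsk7 and Arhgap44. For the RBPJ site and the MCAT element, the background of start peaks lay inside the intervals in both libraries.

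Myocd, the regulator, had the lowest mean start signal of the genes with a start peak in both libraries. Myocd lies at chr11:65176561-65269989 on the minus strand, and myocardin also works in the heart. Its signal was 0.355 (0.271 to 0.457) in replicate 1 and 0.624 (0.489 to 0.784) in replicate 2, a mean of 0.489 ± 0.190 (SD, n = 2) and a log2 ratio of −0.81. Replicate 2 was higher, against the direction at Pdgfrb and Cspg4, and 7.08% of all shared peaks had a lower ratio. The footprints in the Myocd window, 7 in replicate 1 and 6 in replicate 2, did not overlap each other at all. Another gene start in its window, that of Arhgap44, had 0.970 in replicate 1 and 1.68 in replicate 2. Inside the gene, a peak of 0.976 in intron 7 was found in replicate 1 alone.

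From 20 kb upstream to 20 kb downstream, the 10 genes held 73 peaks in replicate 1 and 62 in replicate 2, and no peak fell in 2 windows. In replicate 1, 14 lay at a start of the gene itself, 26 in its introns, 3 in its exons, 12 between genes, 8 in another gene and 10 at starts of other genes, 1 of them non-coding. In replicate 2, 13 lay at a start, 12 in introns, 4 in exons, 20 between genes, 4 in another gene and 9 at starts of other genes. The libraries thus differed most in introns, where replicate 1 had more, and between genes, where replicate 2 had more and 14 of its 20 were the stretch past Cspg4.

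**Figure D3:**
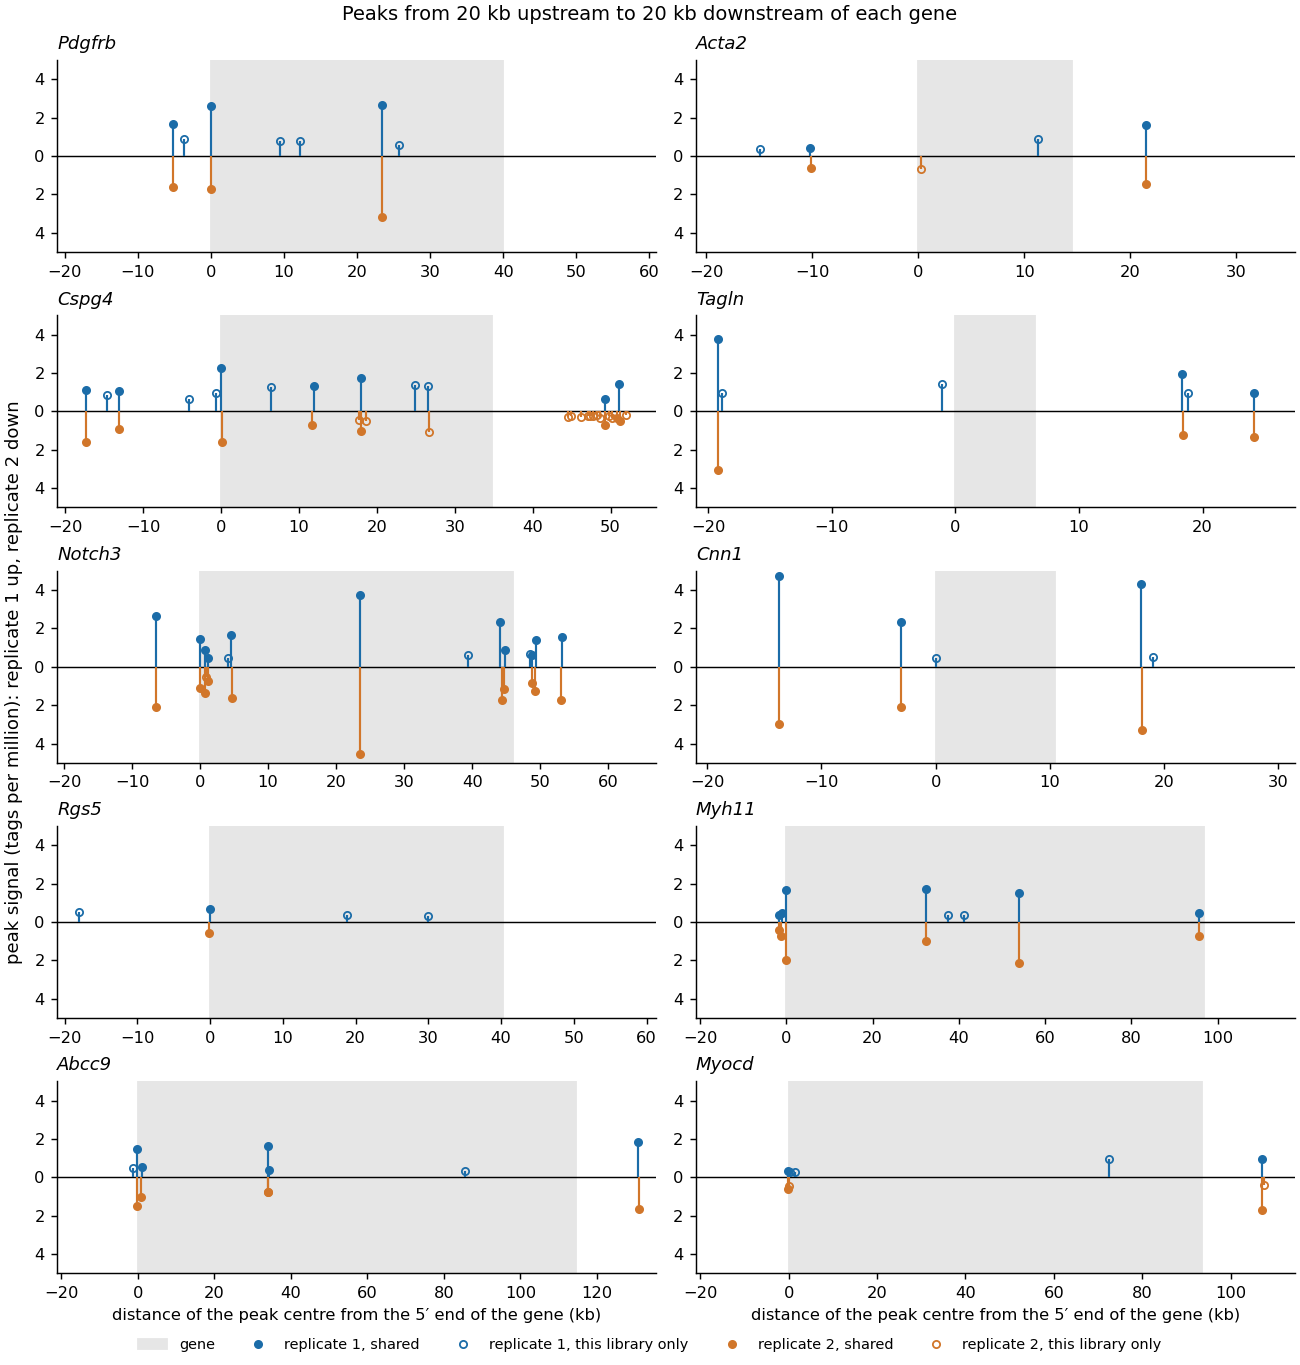
Peaks of the 10 windows by distance of their centre from the 5′ end of the gene (kb), with signal (tags per 1000000) drawn upward for replicate 1 and downward for replicate 2, filled where a peak of the other library overlaps, and the gene body in grey. At Notch3 and Myh11 most peaks have a partner across the axis, Rgs5 has 1 shared peak, and the 14 small peaks past Cspg4 stand in replicate 2.

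The share of peaks found again in the other library differed from that of all peaks by less than counting error. In replicate 1, 43 of 73 overlapped a replicate 2 peak, 58.9% (Wilson 95% interval 47.4 to 69.5%), beside 51.0% of all peaks. In replicate 2, 44 of 62 overlapped a replicate 1 peak, 71.0% (58.7 to 80.8%), beside 79.7%. Both values of all peaks lay inside the intervals. Without the crowded windows, an alternative chosen after seeing the data, the share of replicate 2 was 82.0%, beside 82.5% of all peaks outside such windows. Of the distal peaks alone, 51.0% of 49 in replicate 1 and 65.0% of 40 in replicate 2 were shared, beside 40.0% and 75.4% of all distal peaks.

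Genes differed in how many distal peaks they held, and longer windows can hold more. In replicate 1, 7 of 10 had 3 or more, against 37.7% of all symbols: Notch3 had 11, Cspg4 10, Pdgfrb 6, Myh11 6, Abcc9 4, Acta2 4 and Rgs5 3. In replicate 2, 3 of 10 had 3 or more, against 21.2% of all symbols: Cspg4 had 20, 14 of them in the crowded stretch, Notch3 8 and Myh11 4. Cnn1 had 1 in each library, and Tagln had 2 in replicate 1 and 1 in replicate 2. Myocd had 2 in replicate 1 and, like Rgs5, 0 in replicate 2. Among genes of like length, as many as in replicate 1 were held by 3.01% for Notch3, 2.74% for Cspg4, 15.9% for Pdgfrb, 19.9% for Acta2, 35.6% for Myh11, 45.5% for Rgs5 and 59.0% for Abcc9. In replicate 1 the counts of Rgs5 and Abcc9 are thus typical for their length. In replicate 2 Rgs5 held 0, where genes of like length had a median of 1, and Abcc9 held 2 against a median of 2.

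Signals of the shared peaks were close in the libraries. Over 43 pairs the log2 ratio (replicate 1 over replicate 2) had a median of 0.01 and a range from −1.08 to 1.43, and 3 pairs (6.98%) lay beyond 2-fold. Over all 49760 pairs the median was −0.03 and 5.40% lay beyond 2-fold. The 3 pairs were a peak past the end of Cspg4 and both pairs of intron 14 of Abcc9. The Cspg4 peak had 1.41 in replicate 1 and 0.521 in replicate 2. An adjoining replicate 2 peak, of 0.359, also overlapped the peak of 1.41, so the ratio sets it against part of a split region. At Abcc9, peaks of 1.65 and 0.367 in replicate 1 were paired with the same broader peak of 0.778 in replicate 2. Another replicate 2 peak, of 0.76 and inside the broader one, also overlapped the peak of 1.65. Pairs of 1 library share its depth and are not replicates.

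**Figure D4:**
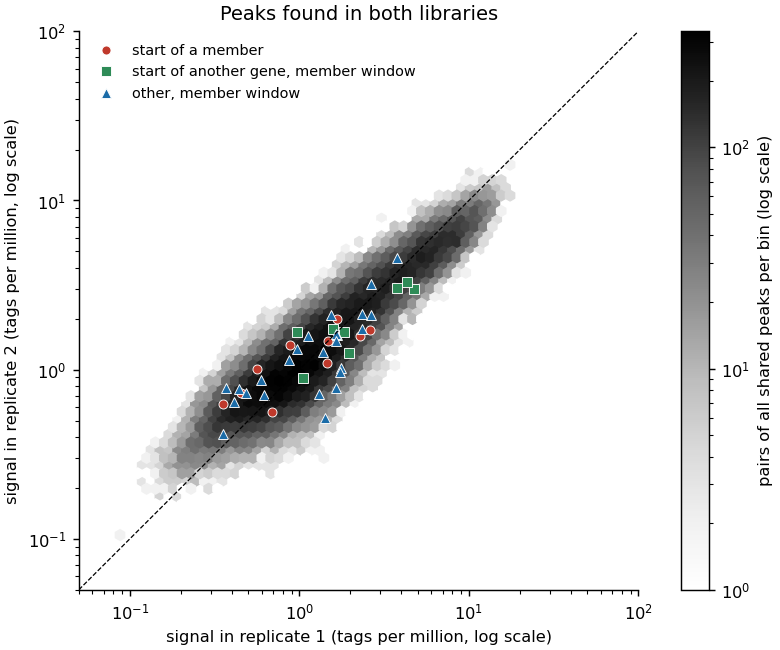
Signal in replicate 1 (horizontal, tags per 1000000, log scale) and in replicate 2 (vertical, log scale) of the 43 pairs of overlapping peaks in the 10 windows, by place, over all 49760 pairs as shaded bins, with a dashed line of equality. The pairs of the 10 windows lie within the cloud of all pairs and below its upper end, with the highest at exon 24 of Notch3 and at the starts of the neighbours of Cnn1 and Tagln.

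Most peaks held a footprint. The share was 90.4% in replicate 1 (81.5 to 95.3%) and 79.0% in replicate 2 (67.4 to 87.3%), beside 81.4% and 77.2% of all peaks. The value of all peaks lay just under the interval in replicate 1 and inside it in replicate 2. The peaks compared were not matched for signal. In replicate 1 those of the 10 windows had a median of 0.94, beside 0.674 of all peaks, and in replicate 2 0.884, beside 0.974. The windows held 191 footprints in replicate 1 and 132 in replicate 2, and 31.9% and 46.2% of these overlapped one of the other library, beside 36.0% and 52.2% of all footprints. The genes differed widely. At Myh11, 13 of 22 in replicate 1 and 12 of 19 in replicate 2 were shared, and at Notch3 16 of 41 and 15 of 31. At Rgs5 and Myocd none was, and at Abcc9 1 of 13 in replicate 1 and 1 of 10 in replicate 2. Each footprint carries the same constant in the deposited files, so none can be ranked above another.

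Genes of the same pathways had start peaks in most cases, and several had higher signals than any of the 10. They are read beside the 63.0% of all symbols with a start peak in both libraries, and lists of 4 to 10 genes give no close estimate of a share. All 9 of the SRF partners and regulators had one in both. The coactivator genes Mrtfa (9.72 in replicate 1 and 6.31 in replicate 2) and Mrtfb (5.02 and 5.90), relatives of Myocd, were far above it. Srf itself had 5.87 in replicate 1 and 3.88 in replicate 2, and Klf4, a repressor of contractile genes, had 6.20 and 4.28. These factors act in many cell types. All 10 genes of the Notch pathway had one too. The highest were Rbpj with 9.90 in replicate 1 and 6.06 in replicate 2, the effector Hey2 with 7.55 and 7.18, and the coactivator Maml1 with 7.46 and 5.82. All 4 PDGF ligand genes were open, with 2.86 in replicate 1 and 2.21 in replicate 2 at Pdgfa, 1.57 and 2.05 at Pdgfb, the ligand of Pdgfrb, and 0.739 and 1.33 at Pdgfc.

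Further contractile and pericyte genes were read beside the same 63.0%. Of 14 other contractile genes, 10 had a start peak in both libraries, a share near that of all symbols, and the highest were Smtn (5.74 in replicate 1 and 3.79 in replicate 2), Tpm2 (3.74 and 3.05) and Des (3.83 and 2.80). Tpm2 and Des are used by skeletal muscle fibres as well. Actg2, Sncg, Kcnmb1 and Pln had none in either library. Of 14 other pericyte genes, 12 had one in both libraries, with medians of 1.46 in replicate 1 and 1.06 in replicate 2. The highest were Mfge8 (4.45 in replicate 1 and 4.73 in replicate 2), Steap4 (2.09 and 1.95) and Mcam (1.69 and 2.01), and Higd1b and Cox4i2 had none.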

How the data were processed

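DNase-seq of 2 gastrocnemius libraries was used as deposited. The peak signal, the footprints and the per-position q-values (false discovery rates, listed below 0.05) are the authors' values on mm10, per the labels. They were made for each library on its own, per the deposited README notes. The deposited signal was a whole multiple of 0.00591 in replicate 1 and 0.00854 in replicate 2 (misses of at most 0.01), which was read as 1 tag per 1000000 tags of the library. The deposited footprint q-value column is the constant 0.01. Names of the aligner, peak caller and footprint caller: not given in the sources used here.

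In each library, the longer of the 2 peak lists was used. Starts, exons and gene borders came from GENCODE M21 (GRCm38). The strongest peak within 1 kb of any start gave the start signal, ranked among all protein-coding symbols with one. Peaks and footprints overlapping by 1 bp counted as shared. Motifs were searched on both strands of 150 bp around peak centres, in RefSeq promoters and, for CArG boxes, over whole windows. Promoter sequences were from RefSeq (GRCm38.p6), whose table held 6 of the 9 genes off chromosome 18, and other sequences were read from the genome. Symbols Mkl1 and Mkl2 were matched as Mrtfa and Mrtfb. With 1 group there was no test between conditions, so counts and percentiles are descriptions, and n = 2 libraries limits each SD. Replicate 1 alone has instruments named, so sequencing and animal cannot be told apart. All 10 genes are named, each with its start peak and its strongest shared peaks (1 such peak is not reported here), and from every further list the 3 with the highest mean and those with none. The genes and lists were chosen with earlier results of these data known. Alternatives were the shorter peak lists, start windows of 500 and 2500 bp, the 5′ end alone and a 5 kb flank. Further ones were peaks at starts of other genes left out, stricter overlap, whole-peak and relaxed motif searches, and each library left out. Scripts were tested on simulated data and used Python 3.11.15, numpy 2.4.6, pandas 2.3.3, scipy 1.17.1, statsmodels 0.14.6 and matplotlib 3.10.9.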

Additional observations from a re-analysis of the deposited data

How the results depend on the processing

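With the shorter peak lists, 5 genes kept a start peak in both libraries in place of 7 (Rgs5 and Myocd did not), Acta2 and Myocd had one in neither, the 10 windows held 47 peaks in replicate 1 in place of 73, and the mean over libraries of the median start percentile was 17.4 in place of 22.6. A flank of 5 kb left 33 peaks in replicate 2 in place of 62, of which 81.8% were shared in place of 71.0%. Without crowded 10 kb windows, chosen after seeing the data, that share was 82.0%. Allowing 1 C or G in the CArG box gave 8.83% of peaks, as a mean over libraries, in place of 0.685%. With 1 library left out, genes with a start peak numbered 8 to 9, the median percentile was 20.7 to 24.6, peaks with a footprint were 79.0 to 90.4%, and those with a CArG box 0 to 1.37%. Of 27 alternatives for the start signals of the 7 genes with a start peak in both libraries, not counting those that leave out a library, 1 moved past the SD of the libraries: with a 500 bp window the mean of Notch3 was 1.28. Most of these alternatives kept the same strongest peak and so the same value, which says little about how firm the signals are. With the shorter lists the value of Rgs5, 0.686, came from replicate 1 alone. The share of replicate 2 peaks that were shared lay below that of all peaks (79.7%) in the lists as used and above it with the 5 kb flank. Other alternatives lowered it from 71.0%: to 59.5% with the shorter lists, 62.9% with the stricter overlap and 67.3% without peaks at starts of other genes. The 79.7% belongs to the lists as used, and outside crowded windows all peaks had 82.5%. The CArG share was 0% with the shorter lists. No paired analysis was possible because the libraries form 1 group. The start peaks of Cnn1, Acta2, Myocd and, in replicate 2, Rgs5 rest on 60 to 80 tags, under the median of 114 over all peaks.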
